A study of Mus musculus with 18 samples.

Results

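Control lungs of mouse embryos at E13.5 (embryonic days post coitum) were compared with control lungs at E12.5 by bulk RNA-Seq, on 6 of the 18 libraries of a study of Wnt5a and Vangl1/2 in lung branching. The E12.5 group was the 3 control libraries of the Wnt5a-Dermo1-Cre experiment, with the genotype Wnt5a f/+; Dermo1Cre. The E13.5 group was the 3 control libraries of the Wnt5a-Sox9-Cre experiment, with the genotype Wnt5a f/+; Sox9Cre. All 6 libraries thus came from embryos with 1 floxed allele of Wnt5a and a Cre, and none from wild-type embryos. Dermo1Cre is carried at the Twist2 locus and acts in the mesenchyme, and Sox9Cre is carried at the Sox9 locus and was used for the epithelium. Stage, Cre line and experiment changed together between the groups, and the 3 cannot be told apart in these data. The labels give neither strain nor sex, and the methods give the floxed Wnt5a line as a mixed stock. The number of embryos per library and whether the replicates were separate embryos were not given in the sources used here, so p-values measure only the spread between these libraries.

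Libraries outside the 6 were used for comparison only. The mutants of the same experiments, Wnt5a f/f; Dermo1Cre at E12.5 and Wnt5a f/f; Sox9Cre at E13.5 (3 libraries each), gave the same difference in stage and experiment with no library in common. The tissue in which Wnt5a was targeted also differed between these mutants, mesenchyme at E12.5 and epithelium at E13.5. That difference cannot be told apart from stage in them. The 3 controls of the Vangl1/2 experiment, Vangl1-/- lungs at E12.5, gave a separate group of E12.5 controls from a further table. Those 3 stood apart among themselves. On the first principal component with the other E12.5 controls (55.7% of the variance) their replicates 1 and 3 were at 35.8 and 46.0 and replicate 2 at −6.24, beside −31.7 to −21.7 in the other group. The differences between these E12.5 groups, Vangl1-/- minus the other, fell with transcript length across genes (Spearman's rho −0.536 over 14145 genes, which share the 6 libraries), and those of E13.5 minus Vangl1-/- rose with it (0.526 over 14217 genes). The cytosolic ribosomal protein genes had a median difference of 0.53 on the log2 scale, higher in the Vangl1-/- group. Results that use the Vangl1-/- fits are therefore also given with the length trend removed and with single libraries left out.

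At these stages the mouse lung is in its pseudoglandular phase, in which epithelial tips that express Sox9 grow and branch into a mesenchyme that forms airway smooth muscle, cartilage, vessels and the elastic and collagenous matrix. Neural crest cells and nerve fibers enter the lung along the foregut and the airways and form ganglia beside the smooth muscle. Macrophages from the yolk sac and the fetal liver settle the mesenchyme, and red blood cells from the yolk sac are gradually replaced by those from the liver.

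The 6 libraries held between 16093383 and 16318036 reads on genes. Values are normalized counts, which are reads on a gene divided by 1 size factor per library, computed over the 6 libraries together. A gene was tested where 3 or more of the 6 libraries reached 10 normalized counts, by limma on log2(normalized counts + 1), so that fold changes of low genes are understated. Past the threshold means an adjusted p under 0.05 (Benjamini-Hochberg over all genes tested), and each fold change is E13.5 minus E12.5 with its standard error. In whole lungs, fewer cells of a type and less RNA per cell cannot be told apart.

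Few genes separated the stages. Of 14314 genes tested, 11 rose and 6 fell, a share of 0.119% (0.0768% and 0.0419%). An unadjusted p under 0.05 was reached by 8.33%: 662 genes were higher and 530 lower at E13.5 (4.62% and 3.7% of those tested), and the groups did not overlap in 13.8%, with all E13.5 libraries higher in 6.95% and lower in 6.85%. The median absolute log2 fold change was 0.07, and 1.35% of genes passed a value of 1 in either direction. All 17 genes past the threshold had groups that did not overlap. Of these, 3 (Gstm6, Zfp534 and Zc3h12d) reached the filter on low values only through the group in which they were high, so that their passing was set in part by the filter, and only their levels are given below. For a single gene, the exact permutation test of 3 against 3 libraries cannot give a two-sided p under 0.1. The count rested on single libraries: no gene passed without E12.5 replicate 2 or without E13.5 replicate 1 (808 and 968 genes at an unadjusted p under 0.05 by limma), and 84 passed without E12.5 replicate 3. The edgeR quasi-likelihood test called 15 genes (0.105%), of which 14 were among the 17, and DESeq2 called 108 (0.755%, with 0.468% higher and 0.286% lower), among them all 17.

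**Figure D1:**
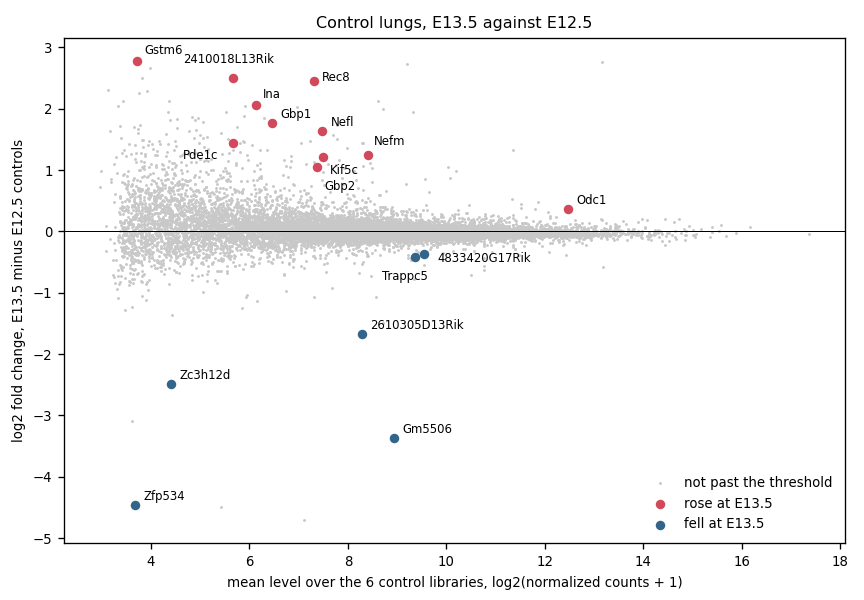
Log2 fold change (E13.5 minus E12.5 controls, y axis) of each of the 14314 genes tested against its mean level over the 6 control libraries (x axis, log2 of normalized counts + 1). The 11 genes that rose (red) and the 6 that fell (blue) are named, and grey points did not pass the threshold; fold changes spread most among low genes.

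The libraries also differed in ways that did not follow stage. The first principal component of the 6 libraries (46.5% of the variance) ran from −39.0 in E12.5 replicate 1 to 21.6 in E13.5 replicate 3, with the groups overlapping. Xist, transcribed from the inactive X chromosome, had 18735, 6503 and 19 normalized counts in the E12.5 controls and 12477, 12609 and 4828 at E13.5. Ddx3y, on the Y chromosome, had 1.01, 913 and 1177 at E12.5 and 327, 351 and 1070.1 at E13.5. E12.5 replicate 1 thus held Xist nearly without the Y-linked transcript, E12.5 replicate 3 the reverse, and the other 4 libraries held both. The summed level of 14 cardiomyocyte genes was 1493, 6804 and 20785 at E12.5 and 5326, 8559.5 and 18646 at E13.5, so that heart transcripts varied more within each stage than between stages.

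Of the gene lists examined, that of neurons was the only one with members past the threshold by limma. The neurofilament subunits Nefl and Nefm, the related intermediate filament Ina and the kinesin heavy chain Kif5c, which carries cargo along axons, rose at E13.5. Of 18 neuronal genes listed, 17 passed the filter on low values, and all 17 fold changes were above 0, with a median of 1.24 beside −0.00112 over all genes tested. In 13 of the 17 the E13.5 libraries lay above all E12.5 libraries, where 6.95% of all genes did, and 15 had an unadjusted p under 0.05, where 4.62% did. Of the 17, 2 passed the threshold (Nefl and Nefm), beside 0.0768% of all genes called higher. Ina and Kif5c stand outside that list. The 17 genes share the same 6 libraries and are not independent of one another. The list was also chosen with earlier results of these data known, so the shares describe these libraries and test nothing. Both limits hold for the shares of each list below.

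Nefl (chromosome 14, 68083863 to 68089095) had 87.0, 68.9 and 100 normalized counts in the E12.5 controls and 249, 219.7 and 342 at E13.5. Every E13.5 library lay above every E12.5 library, and the highest was more than 3 times any level at E12.5. The mean went from 85.3 ± 15.6 to 270.1 ± 63.8 (SD, n = 3), a log2 fold change of 1.64 ± 0.18 (adjusted p = 0.0152 by limma). Its neighbour Nefm (chromosome 14, 68119545 to 68125004), which assembles with it into the same filament, had 179, 182 and 240.0 at E12.5 and 508, 402 and 509 at E13.5. These groups also lay apart, and the log2 fold change was 1.24 ± 0.13 (adjusted p = 0.0123). The Vangl1-/- controls at E12.5 differed from the other E12.5 controls in Nefm by −0.90 ± 0.18 (adjusted p = 0.0532 by limma). With the length trend removed this was −0.90 ± 0.17 (adjusted p = 0.0313). With 1 library left out it passed the threshold only without Vangl1-/- replicate 2 (adjusted p = 0.00163), and otherwise kept its direction with adjusted p from 0.11 to 0.235. Ina (chromosome 19, 47014681 to 47025327), the α-internexin of developing neurons, had 19.2, 21.3 and 41.0 and then 91.7, 109 and 136, with the E12.5 level of replicate 3 about double that of replicate 1. Ina rose by 2.07 ± 0.28 on the log2 scale (adjusted p = 0.0375). Kif5c (chromosome 2, 49619286 to 49774778) had 94.1, 112 and 117 normalized counts at E12.5 and 257, 223 and 271 at E13.5, with little spread inside either group, and rose by 1.21 ± 0.12 (adjusted p = 0.0123).

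The promoter of Kif5c is shown because it was the only promoter among the neuronal genes past the threshold that held an 8-base cAMP response element, TGACGTCA, which occurred in 1.79% of 32851 promoter windows of 300 bases searched. It was also the only match among the 14 genes past the threshold with an entry in the promoter table, which has none for Nefl and Nefm. The 250 bases before the Kif5c start site (RefSeq, GRCm38.p6, plus strand, chr2:49619036-49619285) are given 5′ to 3′ with the element in capitals; it begins 26 bases before the start, reads the same on both strands, and is a match of letters only.
Kif5c: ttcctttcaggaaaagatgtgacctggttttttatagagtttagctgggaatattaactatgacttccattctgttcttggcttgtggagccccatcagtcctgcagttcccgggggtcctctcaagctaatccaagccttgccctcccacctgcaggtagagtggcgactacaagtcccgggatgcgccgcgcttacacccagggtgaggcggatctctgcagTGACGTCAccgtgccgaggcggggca

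The remaining neuronal genes did not pass the threshold, and their values ran in the same direction. Tubb3, the neuronal β-tubulin, had 68.8, 75.0 and 171 normalized counts at E12.5 and 251, 298 and 444 at E13.5 (log2 fold change 1.73 ± 0.32, adjusted p = 0.0952). Elavl3, an RNA-binding protein of neurons, had 23.3, 25.3 and 44.0 and 89.8, 74.2 and 89.2 (1.47 ± 0.25, adjusted p = 0.0727). In both genes E12.5 replicate 3 was the highest of its group and still lay below each E13.5 library. Other members, named after their values were seen, were Prph, a filament of peripheral neurons, at 2.02, Snap25, of the synaptic release machinery, at 1.60, and the receptor Ret at 0.55 (adjusted p from 0.113 to 0.235). The groups of 4 members overlapped: Syt1, Phox2a, Hand2 and Dbh. Th, which makes the precursor of catecholamines, was below the filter. Outside the list, and named after its values were seen, P2rx3, a channel of sensory neurons, overlapped, with 21.2, 16.2 and 21.0 and 17.8, 89.1 and 112.

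With DESeq2, 10 of the 17 neuronal genes passed the threshold, beside 0.468% of all genes called higher. The median of the list lay between 1.06 and 1.63 when each library was left out in turn, and the number past the threshold between 0 and 11, with 11 when E12.5 replicate 3 was left out and 0 without E12.5 replicate 2 or E13.5 replicate 1. The summed level of the list was 1231, 1235 and 1951 at E12.5 and 3174, 2692 and 3654 at E13.5, against 1151, 1589 and 1086 in the Vangl1-/- controls at E12.5. The last 3 values lay below every E13.5 control, as did those of the other E12.5 controls. Skeletal muscle genes, of which 11 of 14 were tested, had a median fold change of 0.87 with sums of 151, 177 and 1171 at E12.5 and 999, 209.8 and 1262 at E13.5, and the cardiomyocyte genes a median of 0.87. All 13 cardiomyocyte and all 11 skeletal muscle genes tested had fold changes above 0, as the neuronal genes did, but none had groups that did not overlap, an unadjusted p under 0.05 by limma, or a call by DESeq2 or edgeR. The cardiomyocyte median turned to −0.29 without E12.5 replicate 1, was 1.82 without E12.5 replicate 3 and 0.46 without E13.5 replicate 3, and was 0.17 with edgeR and with DESeq2. The skeletal muscle median ran from 0.32 to 1.72 with 1 library left out, the ends being without E13.5 replicate 3 and without E12.5 replicate 3. Their part in the neuronal difference was not tested.

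In the mutants the neuronal values ran the other way between the same stages, with no member past the threshold by limma (the groups of all 17 overlapped). The summed neuronal level was 2193, 4405 and 4626 in the E12.5 mutants and 3577, 1346 and 1389 in the E13.5 mutants, and the median fold change of the 17 genes was −0.88. E13.5 mutant replicate 1 lay with the E13.5 controls, E13.5 mutant replicates 2 and 3 lay near the E12.5 controls, and E12.5 mutant replicates 2 and 3 held the highest sums of the 12 libraries. Nefl had 197, 438 and 485 normalized counts in the E12.5 mutants and 312, 93.0 and 61.0 in the E13.5 mutants, which overlapped (log2 fold change −1.52 ± 0.57, adjusted p = 0.761). In the test of the difference between mutants and controls, 14 of 18 neuronal genes had an unadjusted p under 0.05 with a lower stage difference in the mutants, where 3.28% of genes did. No gene of 14606 passed the threshold in that test by limma (760 or 5.2% at an unadjusted p under 0.05), and the smallest adjusted p in the list was 0.264. With E13.5 mutant replicate 1 left out, 65 genes passed, all lower in the mutants, and without E12.5 control replicate 3, 4 did.

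**Figure D2:**
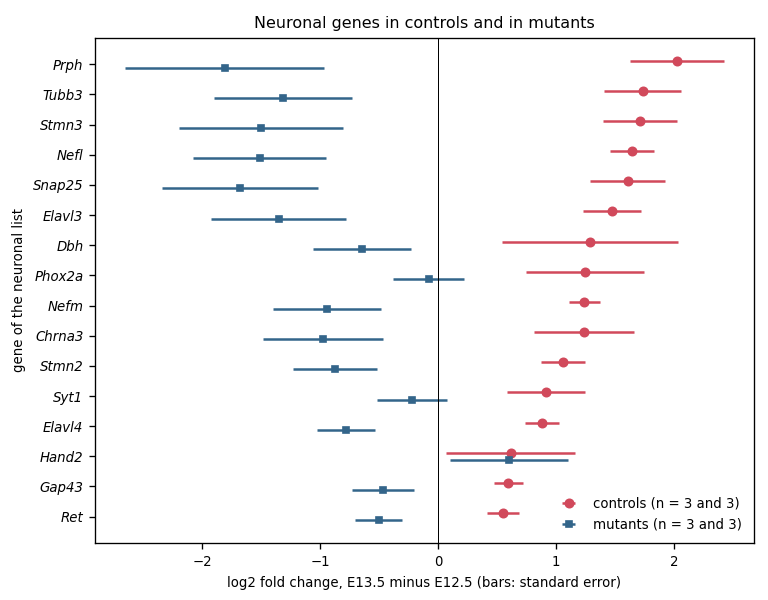
Log2 fold change between the stages (E13.5 minus E12.5, x axis, bars are standard errors) of 16 of the 17 neuronal genes tested, in controls (red circles, 3 libraries a stage) and in mutants (blue squares, 3 libraries a stage). All 16 values were above 0 in controls, and in mutants 15 were below 0, with Hand2 as the exception.

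Of the guanylate-binding proteins, GTPases induced by interferons that act in the defence of cells against intracellular pathogens, Gbp1 and Gbp2 rose at E13.5. Gbp1, named Gbp2b in RefSeq (chromosome 3, 142594816 to 142619179), had 32.4, 55.7 and 31.0 normalized counts at E12.5 and 142, 147 and 111 at E13.5. The E13.5 libraries all lay above the E12.5 libraries, and the log2 fold change was 1.76 ± 0.23 (adjusted p = 0.0327). Gbp2, the next gene (chromosome 3, 142620663 to 142638008), had 100, 119.6 and 102 and 256, 212 and 202, about double at E13.5 (1.05 ± 0.13, adjusted p = 0.0231). Of the 11 genes of the Gbp family in the tables, 9 were tested and 2 passed the threshold, beside 0.0768% of all genes called higher, and 5 had E13.5 libraries that all lay above those of E12.5, beside 6.95% of all genes. The family was counted after the values of Gbp1 and Gbp2 were seen. The other 3 of these 5, named after their values were seen, were Gbp3 (1.04 ± 0.20, adjusted p = 0.0999), Gbp5 (1.09 ± 0.32, 0.33) and Gbp7 (0.48 ± 0.13, 0.262). The 5 genes are neighbours on chromosome 3, and as near relatives they may share reads.

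The promoters of these 5 genes are shown because each held the core of the interferon-stimulated response element, GAAA, any 2 bases, then GAAA, searched on both strands, which occurred in 3.44% of the 32851 promoter windows. Of the 9 family members tested, 5 held a match in a promoter entry. Among the 14 genes past the threshold with an entry, 3 held one, Gbp1, Gbp2 and Gstm6. The 250 bases before the start site (RefSeq, GRCm38.p6, plus strand) are given 5′ to 3′ with the match in capitals, which appears as its reverse complement. It begins 137 bases before the start in Gbp1 (chr3:142594597-142594846), 59 in Gbp2 (chr3:142620413-142620662), 165 in Gbp5 (chr3:142496684-142496933) and 53 in Gbp7 (chr3:142530086-142530335). Gbp3 held 2 overlapping matches, at 45 and 39 bases (chr3:142559794-142560043), and a further Gbp3 start site in the table held none.
Gbp1: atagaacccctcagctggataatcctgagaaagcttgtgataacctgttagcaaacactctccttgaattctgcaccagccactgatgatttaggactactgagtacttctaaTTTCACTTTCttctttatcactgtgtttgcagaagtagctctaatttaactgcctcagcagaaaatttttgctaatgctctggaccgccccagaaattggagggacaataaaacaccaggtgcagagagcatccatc
Gbp2: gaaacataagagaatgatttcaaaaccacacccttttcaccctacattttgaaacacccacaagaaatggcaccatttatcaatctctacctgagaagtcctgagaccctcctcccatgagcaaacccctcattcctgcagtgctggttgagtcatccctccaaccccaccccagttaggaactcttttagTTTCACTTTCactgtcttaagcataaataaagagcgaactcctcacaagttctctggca
Gbp3: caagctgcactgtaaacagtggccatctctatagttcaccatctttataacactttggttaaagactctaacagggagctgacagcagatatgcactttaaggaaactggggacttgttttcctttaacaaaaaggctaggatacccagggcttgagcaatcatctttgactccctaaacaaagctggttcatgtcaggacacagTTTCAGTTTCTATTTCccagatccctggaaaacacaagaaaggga
Gbp5: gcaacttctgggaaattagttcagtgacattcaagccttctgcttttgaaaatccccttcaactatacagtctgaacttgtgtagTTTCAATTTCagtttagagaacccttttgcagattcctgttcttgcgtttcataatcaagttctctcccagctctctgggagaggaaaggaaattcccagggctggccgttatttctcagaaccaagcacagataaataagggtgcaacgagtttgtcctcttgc
Gbp7: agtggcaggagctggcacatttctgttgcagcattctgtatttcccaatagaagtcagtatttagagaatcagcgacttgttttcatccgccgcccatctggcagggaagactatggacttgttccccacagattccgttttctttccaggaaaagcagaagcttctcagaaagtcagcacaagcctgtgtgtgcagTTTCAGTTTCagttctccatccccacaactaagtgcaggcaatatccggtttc

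The Gbp levels did not follow stage outside these 6 libraries. In the Vangl1-/- controls at E12.5, Gbp1 had 263, 193 and 255 normalized counts and Gbp2 522, 348 and 537, above all 6 libraries of this comparison. Against these E12.5 controls, which share the E13.5 libraries with the comparison above, the E13.5 level of Gbp1 was lower, at −0.81 ± 0.17 (adjusted p = 0.0471), as was that of Gbp2, at −1.04 ± 0.18 (adjusted p = 0.0376). With the length trend removed, the difference was −0.71 ± 0.14 for Gbp1 (adjusted p = 0.0297) and −0.90 ± 0.14 for Gbp2 (adjusted p = 0.0168). Without Vangl1-/- replicate 2 both passed the threshold, at −0.95 ± 0.15 and −1.23 ± 0.12, and with any other of the 6 libraries left out neither did, with adjusted p from 0.0945 to 0.206 and the same direction. In the mutants the replicates spread widely, with Gbp1 at 1.02, 63.0 and 3.03 at E12.5 and 101, 6.0 and 166 at E13.5. No direction could be given there, since the groups overlapped.

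A further set of genes rose whose known roles share no pathway. Rec8 (chromosome 14, 55618002 to 55625395), the meiotic subunit of cohesin, had 37.4, 40.5 and 68.0 normalized counts at E12.5 and 210.1, 334 and 254 at E13.5. The lowest E13.5 library was over 3 times the highest E12.5 library, and the log2 fold change was 2.45 ± 0.24 (adjusted p = 0.0123). The Vangl1-/- controls at E12.5 had 50.2, 38.5 and 28.9, within or below the range of the E12.5 group. Odc1 (chromosome 12, 17544808 to 17551502), ornithine decarboxylase, which makes the polyamine putrescine, had 4806, 4859.9 and 5145 and 6364, 6267 and 6353. This difference of 1.28-fold passed with tight groups (log2 fold change 0.36 ± 0.04, adjusted p = 0.0123), but the Vangl1-/- controls at E12.5 already had 6439.5, 5516 and 7835. These differed from the other E12.5 controls by 0.38 ± 0.13 (adjusted p = 0.104), and by 0.21 ± 0.08 with the length trend removed (adjusted p = 0.151). With 1 library left out, that difference passed the threshold only without Vangl1-/- replicate 2 (0.50 ± 0.08, adjusted p = 0.000629).

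Genes below a mean of 100 normalized counts lay outside the rule for named genes and were named after their values were seen. Pde1c, a cyclic nucleotide phosphodiesterase activated by calmodulin (chromosome 6, 56069798 to 56652510), had 23.3, 22.3 and 34.0 normalized counts at E12.5 and 72.0, 71.3 and 75.3 at E13.5 (1.45 ± 0.21, adjusted p = 0.0453). Its E13.5 libraries differed little from one another, and in the mutants its stage difference was −0.42 ± 0.23. The long noncoding RNA 2410018L13Rik had 11.1, 9.12 and 24.0 and 73.0, 118 and 62.4 (2.50 ± 0.37, adjusted p = 0.0494). Gstm6, a glutathione S-transferase of the mu class, rested on few reads, with 2.02, 2.03 and 3.0 and 17.8, 24.7 and 23.8. Both had E12.5 libraries far below E13.5, and the first was as low in the Vangl1-/- controls, at 10, 13.6 and 7.45.

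**Figure D3:**
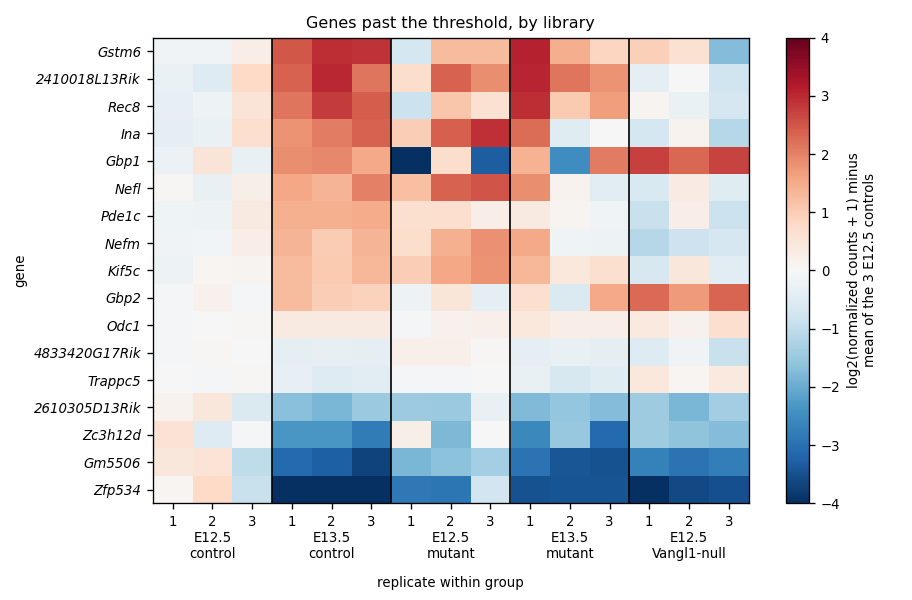
Level of the 17 genes past the threshold (rows, ordered by fold change) in each of 15 libraries (columns, 3 a group), as log2(normalized counts + 1) minus the mean of the 3 E12.5 controls; red is higher and blue lower, and the scale stops at 4 in each direction. In the Vangl1-/- controls at E12.5, Rec8, Nefl and Kif5c lay with the E12.5 controls, while Gbp1, Gbp2, 2610305D13Rik and Gm5506 lay with or beyond the E13.5 controls. Nefm differed there from the E12.5 controls by −0.90 ± 0.18 on the log2 scale.

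Among the falls were genes of a zinc finger cluster on chromosome 4. Such genes encode DNA-binding repressors with a KRAB domain, which lie in tandem arrays of young, similar copies. 2610305D13Rik, named Zfp979 in RefSeq (chromosome 4, 147611936 to 147642508), had 502, 624 and 310.1 normalized counts at E12.5 and 144, 128 and 163 at E13.5. The E12.5 levels spread, with replicate 3 the lowest, but all lay above E13.5, and the log2 fold change was −1.67 ± 0.22 (adjusted p = 0.0327). Zfp534 (chromosome 4, 147674225 to 147702631) had 22.3, 37.5 and 11 at E12.5 and no read in any of the 3 E13.5 libraries. With the 3 reads that a count of 0 allows over those libraries together, it was at least 23.8-fold lower at E13.5, a size that describes these libraries with no test. Of the neighbours named after their values were seen, Gm13154 (Zfp985) had 91.0, 101 and 49.0 and 5.92, 4.95 and 0, and it too reached the filter through the E12.5 libraries alone. Gm13157 (Zfp984) had 461, 516 and 351 and 264, 255 and 269, which did not overlap and did not pass the threshold (adjusted p = 0.0766 by limma). DESeq2 called Gm13157 and edgeR did not.

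The region was limited after its values were seen, from Gm13212 to Masp2 (chromosome 4, 145585172 to 148615499). Of 31 genes tested there, 17 had fold changes below 0 and 14 above, 10 had E13.5 libraries all below those of E12.5, beside 6.85% of all genes, 3 had them all above, beside 6.95%, and 2 passed the threshold, beside 0.0419% called lower. The 2 were 2610305D13Rik and Zfp534, of which the latter reached the filter through the E12.5 libraries alone. Nothing is read from these counts, since the limits of the region followed the values and some of its genes reached the filter through 1 group alone. At its far end Masp2, a serine protease of the lectin pathway of complement, had 24.3, 21.3 and 16.0 and 2.96, 2.97 and 0, also through the filter by its E12.5 libraries alone. Genes in between such as Mfn2, a mitochondrial fusion protein, and Mtor, the growth kinase, had fold changes of 0.04 and −0.04. These 2 genes did not share the lower levels.

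The promoters of the 4 zinc finger genes are shown for their likeness as tandem copies. These windows lie before the transcripts, which were not compared, so that they say nothing of how reads were assigned to each gene. In local alignments of the 250 bases before their start sites, identity between pairs ran from 74.7% to 89.3% over 214 to 254 aligned columns. The longest run shared by all 4 was 15 bases and is in capitals. The sequences (RefSeq, GRCm38.p6) are given 5′ to 3′ on the strand of each gene: 2610305D13Rik on the minus strand (chr4:147642509-147642758), Zfp534 on the minus strand (chr4:147702632-147702881), Gm13154 on the plus strand (chr4:147553027-147553276) and Gm13157 on the minus strand (chr4:147809789-147810038).
2610305D13Rik: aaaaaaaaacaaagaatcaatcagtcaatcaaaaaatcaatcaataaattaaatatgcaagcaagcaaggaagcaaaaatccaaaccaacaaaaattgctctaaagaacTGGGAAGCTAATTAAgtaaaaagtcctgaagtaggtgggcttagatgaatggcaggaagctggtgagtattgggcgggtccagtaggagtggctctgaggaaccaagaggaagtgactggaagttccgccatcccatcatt
Zfp534: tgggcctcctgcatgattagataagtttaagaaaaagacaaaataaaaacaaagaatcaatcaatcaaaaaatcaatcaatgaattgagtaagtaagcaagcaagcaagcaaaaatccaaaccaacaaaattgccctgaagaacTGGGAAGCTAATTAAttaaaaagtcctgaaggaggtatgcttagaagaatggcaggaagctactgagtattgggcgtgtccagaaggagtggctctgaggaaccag
Gm13154: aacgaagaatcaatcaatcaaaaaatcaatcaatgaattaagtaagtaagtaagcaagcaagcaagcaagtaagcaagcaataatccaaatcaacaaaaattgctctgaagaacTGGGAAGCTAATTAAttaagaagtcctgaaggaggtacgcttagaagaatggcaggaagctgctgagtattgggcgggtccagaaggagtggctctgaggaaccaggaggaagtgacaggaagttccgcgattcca
Gm13157: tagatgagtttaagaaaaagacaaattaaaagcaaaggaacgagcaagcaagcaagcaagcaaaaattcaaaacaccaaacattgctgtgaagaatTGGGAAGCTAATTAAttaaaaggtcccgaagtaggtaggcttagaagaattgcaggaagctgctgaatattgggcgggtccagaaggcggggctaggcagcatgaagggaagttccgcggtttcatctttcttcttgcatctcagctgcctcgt

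These falls did not follow stage in the other E12.5 controls. The Vangl1-/- controls had 172, 130.0 and 176 normalized counts of 2610305D13Rik and 4.56, 4.81 and 8.39 of Gm13154, at E12.5, near the E13.5 levels. Zfp534 differed there from the Wnt5a-Dermo1-Cre controls at E12.5 by −3.93 ± 0.57 on the log2 scale, and by −4.02 ± 0.59 with the length trend removed. With 1 Vangl1-/- library left out the difference ran from −4.10 to −3.61. Zfp534 reached the filter through 1 group, so these sizes are given with no test. Against the E12.5 controls of the Wnt5a-Dermo1-Cre experiment, with no difference in stage, 2610305D13Rik differed by −1.56 ± 0.25 (adjusted p = 0.0379), and by −1.68 ± 0.23 with the length trend removed (adjusted p = 0.0122). The difference passed the threshold without E12.5 replicate 3 or Vangl1-/- replicate 2, and with each other library left out it had the same direction with adjusted p from 0.105 to 0.188. In the E12.5 mutants, 2610305D13Rik had 167, 164 and 376, so that only replicate 3 reached the range of the E12.5 controls. 2610305D13Rik thus differed between control groups of 1 stage by about as much as between the stages.

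Gm5506, named Eno1b in RefSeq, is a copy of the glycolytic enzyme gene Eno1, with which it may share reads. It had 1107, 1184 and 400.1 normalized counts at E12.5 and 91.7, 82.2 and 61.4 at E13.5, with the levels of E12.5 replicates 1 and 2 more than double that of replicate 3. All E13.5 libraries lay below, by −3.37 ± 0.35 on the log2 scale (adjusted p = 0.0123). It was the only gene past the threshold in both controls and mutants, with 229, 259 and 313 in the E12.5 mutants and 103, 74.0 and 71.2 in the E13.5 mutants (−1.69 ± 0.17, adjusted p = 0.0224). The Vangl1-/- controls at E12.5, however, had 123, 104 and 116, close to E13.5 and −2.83 ± 0.38 from the E12.5 controls (adjusted p = 0.026). That difference was −3.06 ± 0.37 with the length trend removed (adjusted p = 0.00853). It passed the threshold without E12.5 replicate 3 or Vangl1-/- replicate 2, and with each other library left out it had the same direction with adjusted p from 0.0808 to 0.145.

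**Figure D4:**
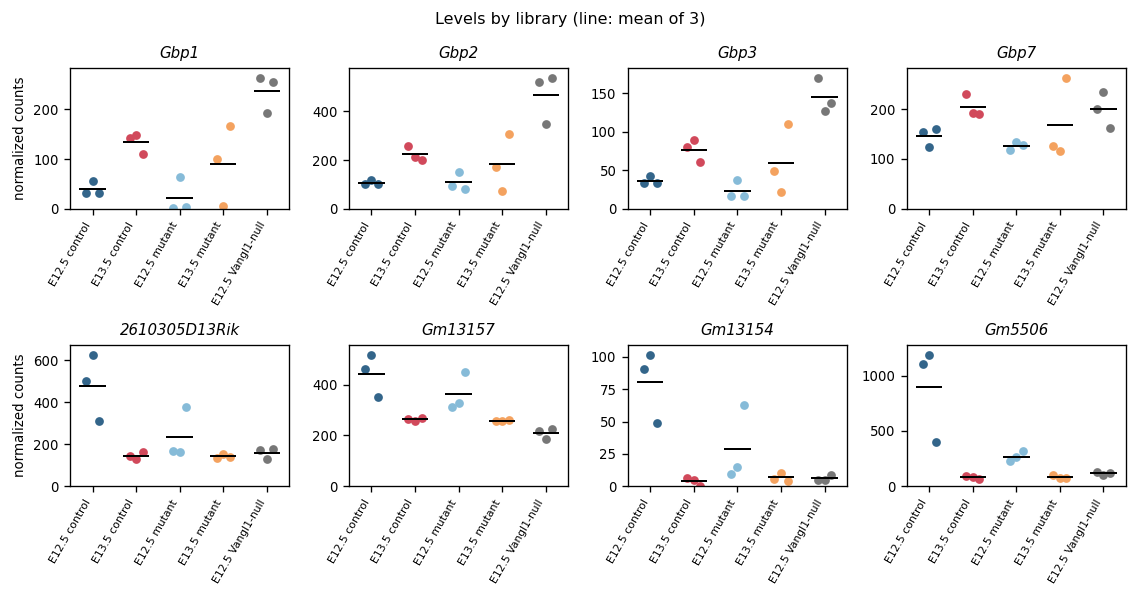
Normalized counts (y axis, from 0) of 4 Gbp genes, 3 zinc finger genes and Gm5506 in each library of 5 groups (x axis; points are libraries, lines are means of 3). The Gbp genes were highest in the Vangl1-/- controls except for Gbp7, and the means of the zinc finger genes and Gm5506 were highest in the E12.5 controls of the Wnt5a-Dermo1-Cre experiment.

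Trappc5 (chromosome 8, 3676477 to 3680921), a subunit of the complex that tethers vesicles on their way to the Golgi, had 754, 735 and 772 normalized counts at E12.5 and 599, 529.5 and 563 at E13.5. The groups lay apart by a 1.34-fold difference (−0.42 ± 0.06, adjusted p = 0.0453). In the mutants, with 707, 730.3 and 744 and 611, 486 and 536, the difference was of like size (−0.43 ± 0.09) but did not pass the threshold (adjusted p = 0.35). The protein-coding gene 4833420G17Rik (chromosome 13, 119462015 to 119486120) had 822, 865 and 839 and 639, 667 and 649 (−0.37 ± 0.05, adjusted p = 0.0327), and −0.50 ± 0.07 in the mutants (adjusted p = 0.0741). Zc3h12d, a zinc finger ribonuclease of the regnase family that was named after its values were seen, had 50.6, 23.3 and 32.0 and 5.92, 5.94 and 3.96, with every E13.5 level below the 10 of the filter. In the Vangl1-/- controls at E12.5, Trappc5 had 1004, 797 and 992, above all 6 libraries, and 4833420G17Rik 593, 765 and 456, which spread from below the E13.5 group to between the groups. Zc3h12d differed there from the Wnt5a-Dermo1-Cre controls at E12.5 by −1.61 ± 0.33 (adjusted p = 0.0549 by limma). With the length trend removed this was −1.57 ± 0.33 (adjusted p = 0.0411). With 1 library left out it passed only without Vangl1-/- replicate 2 (adjusted p = 0.00452) and kept its direction.

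Beside the 17 genes called in controls, 6 of 14287 genes (0.042%) were called in the mutants (908 or 6.36% at an unadjusted p under 0.05). Of the 17, 15 were tested in the mutants, 10 had the same sign there and 1 passed, Gm5506, which is 1 of the 17 and 1 of the 6. All 6 genes called in the mutants had the same sign in controls. Hist1h2ak, a replication-dependent histone named for its call in the mutants, had 43.5, 5.07 and 20.0 normalized counts in the E12.5 controls and 64.1, 66.3 and 72.3 at E13.5 (1.94 ± 0.58, adjusted p = 0.329), and 2.08 ± 0.21 in the mutants (adjusted p = 0.0224). By comparison, the Vangl1-/- and the Wnt5a-Dermo1-Cre controls, both at E12.5, differed in 198 of 14241 genes (1.39%), and the E13.5 controls differed from the Vangl1-/- controls in 448 of 14313 (3.13%). These comparisons share libraries with the one described here. Both counts rested on single libraries: without Vangl1-/- control replicate 2 they were 7322 and 8000, and with any other library left out 4 to 18 and 4 to 57.

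The targeted gene and the genes that carry the Cre did not pass the threshold. Wnt5a, a ligand of noncanonical Wnt signaling, had 476, 434 and 494 normalized counts at E12.5 and 471, 450.3 and 423 at E13.5, which overlapped (−0.06 ± 0.07, adjusted p = 0.866). Twist2, a transcription factor of the mesenchyme whose locus holds the Cre in the E12.5 group, had 322, 299.9 and 245 and 377, 325 and 308, also overlapping (0.22 ± 0.12, adjusted p = 0.665). In the mutants, where the same loci differ, Twist2 had 192, 188 and 146 and 357, 318 and 339.6, which did not overlap (0.95 ± 0.12, adjusted p = 0.0738). Sox9, the transcription factor of the epithelial tips and of cartilage, whose locus holds the Cre in the E13.5 group, had 1664, 1714 and 1603 at E12.5 and 1339.7, 1540.1 and 1136 at E13.5. The E13.5 libraries all lay below (−0.32 ± 0.09, adjusted p = 0.313 by limma and 0.0391 by DESeq2), and in the mutants the difference was −0.38 ± 0.06 (adjusted p = 0.217).

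Genes that define the lung epithelium were at like levels at both stages. Nkx2-1, the transcription factor of lung identity, had 2911, 2365 and 2494 normalized counts at E12.5 and 2595, 2473 and 2308 at E13.5 (−0.07 ± 0.07). Cdh1, E-cadherin, had 2196, 2175 and 2052 and 2025, 2005 and 1996 (−0.09 ± 0.04, adjusted p = 0.581), all E13.5 libraries being lower by a small amount. By limma, none of the 17 shared epithelial genes passed the threshold, and their median was −0.05. Of these 17, 2 had an unadjusted p under 0.05, beside 8.33% of all genes. None of 11 tip progenitor genes passed by limma (median −0.02), and 1 had an unadjusted p under 0.05, beside the same 8.33%. Id2, an inhibitor of differentiation, was at 0.03 ± 0.05. DESeq2 called 1 gene of these lists, Sox9, and edgeR none.

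Genes of later epithelial cells differed little and in both directions. Sftpc, the surfactant protein that also marks tip cells, had 1397, 1127 and 1199 normalized counts at E12.5 and 1084, 1016 and 879 at E13.5 (−0.32 ± 0.09, adjusted p = 0.313). Sftpb, of the same secretion, had 231, 191 and 211 and 297, 228 and 276 (0.34 ± 0.12, adjusted p = 0.462). The former was lower in each E13.5 library, and the latter overlapped. Of 12 surfactant and alveolar type 2 genes, 10 were tested with none past the threshold (median 0.02), and likewise none of 10 alveolar type 1 genes, of which Hopx was at −0.14 ± 0.21 and Ager at −0.08 ± 0.08 (median −0.08). Of 11 proximal airway genes 7 were tested (median −0.22), with Sox2, the factor of the conducting airway, at −0.16 ± 0.08 and Foxj1, which directs the making of motile cilia, near the filter at 17.2, 19.3 and 16.0 and 14.8, 19.8 and 10.9. Neuroendocrine genes, of which 10 of 12 were tested in the controls, had a median of 0.36 there. In the mutants the median was −0.49 over 9 tested. By limma 5 had an unadjusted p under 0.05 in the controls, all higher, beside 4.62% of all genes. Some of those 5 are expressed by neurons too, such as Syp, of synaptic vesicles, at 0.84 and Uchl1, a ubiquitin hydrolase, at 0.34, both named after their values were seen. Calca, a peptide hormone gene, had 7.08, 12.2 and 19 and 12.8, 18.8 and 15.9, which overlapped. In the controls neither edgeR nor DESeq2 called a gene of these 4 lists. There 5 members of the alveolar lists had an unadjusted p under 0.05 by limma, beside 8.33% of all genes.

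**Figure D5:**
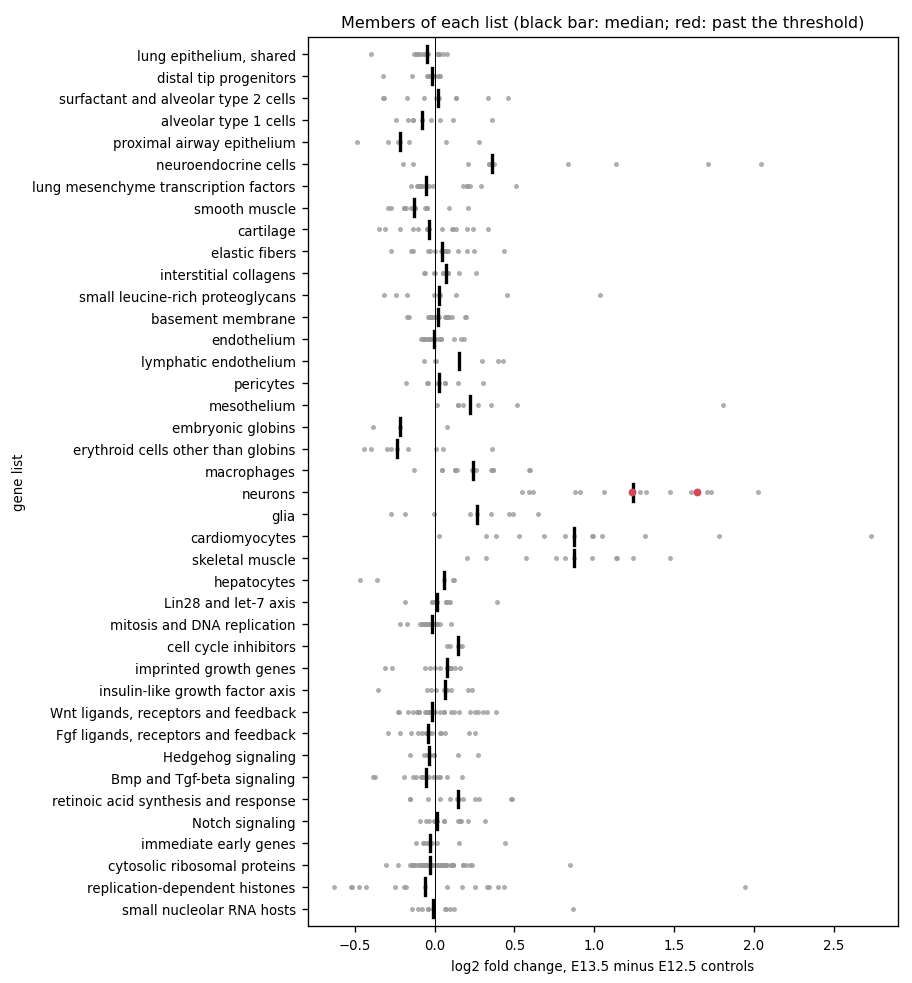
Log2 fold change (E13.5 minus E12.5 controls, x axis) of each tested member of 40 gene lists (rows; grey points did not pass the threshold, red points did, and black bars are medians). The 17 neuronal genes were all above 0 and held the only 2 points past the threshold, the cardiomyocyte and skeletal muscle genes were also all above 0 in this fit to all 6 libraries (the cardiomyocyte median was −0.29 without E12.5 replicate 1), and most lung lists centred near 0.

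The mesenchyme and its products were likewise close between the stages. Of 16 transcription factors of the lung mesenchyme none passed the threshold by limma, edgeR or DESeq2 (median −0.05). By limma 4 had an unadjusted p under 0.05, beside 8.33% of all genes. Those 4, named after their values were seen, were Tbx5 at −0.09, Tbx2 at −0.10, Tbx3 at −0.10 and Zfpm2 at 0.18. Tcf21 was at −0.15 ± 0.07 and Tbx4 at −0.07 ± 0.05, and the groups of both overlapped. The 14 smooth muscle genes had a median of −0.13 in the controls and 0.33 in the mutants. In the controls 12 had fold changes below 0, with none past the threshold. There 2 of the 14 had an unadjusted p under 0.05 by limma, beside 8.33% of all genes. Acta2, smooth muscle actin, had 7150.4, 6447 and 8455 normalized counts at E12.5 and 5955, 6905 and 6387 at E13.5, and Myh11, the smooth muscle myosin, 2581, 2028 and 3115 and 1909, 2760.5 and 2089.7. Both overlapped. Cartilage genes had a median of −0.03 over 15 tested of 18, where Col2a1, the collagen of cartilage, was higher in every E13.5 library (1403, 1471 and 1556 against 1717, 1932 and 1591, 0.24 ± 0.07, adjusted p = 0.318) and Acan, aggrecan, rested on few reads, with 12.1, 11.1 and 11 and 14.8, 8.91 and 4.95.

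Matrix genes gave no member past the threshold by limma, edgeR or DESeq2. By limma 7 members had an unadjusted p under 0.05, beside 8.33% of all genes. The lists were elastic fibers (17 tested, median 0.05), interstitial collagens (13 tested, 0.07), small leucine-rich proteoglycans (9 of 10 tested, 0.03) and basement membrane (21 tested, 0.02). Eln, elastin, had 4622, 3836 and 5763 normalized counts at E12.5 and 5852, 3571 and 3675 at E13.5, and Fbn1, fibrillin, was at 0.06 ± 0.05. Among the collagens Col1a1 was at 0.09 ± 0.12 and Col1a2 at 0.15 ± 0.08. Dcn, decorin, had 1753, 2349.9 and 3332 and 4163, 2598 and 3261, and Lum, lumican, 1059.9, 1358 and 1753 and 2035, 1191 and 1380.3, so that both varied within a stage as much as between stages. In the basement membrane list Lama1 was at 0.19 ± 0.07, with every E13.5 library higher, and Lama2 at 0.00 ± 0.06.

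Vascular genes were even between the stages. Over 21 endothelial genes the fold changes ran from −0.08 to 0.18 with a median of −0.01, and none had an unadjusted p under 0.05 by limma. Pecam1 was at −0.02 ± 0.04 and Cdh5, VE-cadherin, at −0.06 ± 0.04. Lymphatic genes (6 of 7 tested, median 0.15) held Prox1, the factor of lymphatic identity, at 0.30 ± 0.15 and Flt4 at 0.01 ± 0.05. Pericyte genes (9 of 10 tested, median 0.03) held Pdgfrb at 0.07 ± 0.07 and Cspg4 at 0.07 ± 0.07. None of these passed by limma, edgeR or DESeq2. Mesothelial genes (8 of 9 tested) were all above 0 in the controls with a median of 0.22, and in the mutants the median of 7 tested was −0.24. By limma 3 had an unadjusted p under 0.05 in the controls, all higher, beside 4.62% of all genes. In the controls Wt1, of the mesothelium, had 469, 666 and 636 normalized counts at E12.5 and 813, 699.8 and 730.3 at E13.5 (0.35 ± 0.12, adjusted p = 0.442). Upk3b was at 0.18 ± 0.11 there.

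No gene of blood cells or macrophages passed the threshold by limma. Hba-x, the embryonic α-like globin, had 6442, 7035 and 5291 normalized counts at E12.5 and 4651, 5223 and 4455 at E13.5 (−0.38 ± 0.10, adjusted p = 0.229). Hbb-bh1, an embryonic β-like globin, overlapped at 149, 212 and 207 and 149, 239.5 and 215. Alas2, the erythroid enzyme that starts heme synthesis, had 722, 729.6 and 674 and 500.2, 468 and 605 (−0.44 ± 0.09, adjusted p = 0.13 by limma and 0.00589 by DESeq2). The adult globins Hba-a1 and Hba-a2 were listed at 0 in all 6 libraries and could not be compared. The adult β-globin listed as Beta-s (Hbb-bs in RefSeq), named after its values were seen, was at 11179, 10926 and 11250.1 and 7937, 5807 and 8840.5 (−0.58 ± 0.12, adjusted p = 0.138). Erythroid genes other than globins had a median of −0.24 over 9 tested of 12. By limma 2 had an unadjusted p under 0.05, beside 8.33% of all genes.

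Of 15 macrophage genes tested of 16, 14 had fold changes above 0 (median 0.24), 7 had E13.5 libraries all above those of E12.5, beside 6.95% of all genes, and 6 had an unadjusted p under 0.05, beside 4.62%. Csf1r, the receptor for the macrophage growth factor, had 478, 502 and 602 normalized counts at E12.5 and 752, 666 and 618 at E13.5. Its lowest E13.5 library lay just above the highest at E12.5 (0.37 ± 0.10, adjusted p = 0.269). Lyz2, lysozyme, had 169, 219.9 and 266 and 299.9, 370.2 and 309 (0.60 ± 0.15, adjusted p = 0.25 by limma and 0.0364 by DESeq2). In the mutants, which share no library with the controls, the median of the list was 0.19 and Lyz2 was at 0.62 ± 0.13 (adjusted p = 0.35). The medians of the neuronal, neuroendocrine, smooth muscle, mesothelial and glial genes, among others, had the other sign in the mutants than in the controls. The marker Adgre1 stands in the tables under its older name Emr1 and was not matched.

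Signaling genes were close to level. No member passed the threshold among 28 Wnt genes (median −0.02), 17 Fgf genes (−0.04), 11 Hedgehog genes (−0.03), 18 Bmp and Tgf-beta genes (−0.05), 13 of 15 retinoic acid genes (0.15) or 15 of 16 Notch genes (0.02). Among the ligands, Wnt2, which specifies the lung, was at −0.11 ± 0.07, Wnt2b at −0.23 ± 0.17, Shh, secreted by the epithelium, at −0.05 ± 0.05, Fgf7 at −0.22 ± 0.31, Fgf1 at −0.08 ± 0.13, Bmp2 at −0.00 ± 0.14 and Bmp3 at −0.38 ± 0.13. Among receptors, Ptch1, the receptor and target of Shh, was at −0.07 ± 0.11, Notch1 at 0.15 ± 0.04 with every E13.5 library higher, and Notch2 at −0.09 ± 0.04 with every one lower. Of the retinaldehyde dehydrogenases that make retinoic acid, Aldh1a1 was at −0.15 ± 0.08 and Aldh1a2 at 0.15 ± 0.06. By limma 14 members of these lists had an unadjusted p under 0.05, beside 8.33% of all genes. Of the 18 Bmp and Tgf-beta genes 4 did so, all lower, beside 3.7% of all genes. Of the 13 retinoic acid genes 3 did so, all higher, beside 4.62%. Neither edgeR nor DESeq2 called any of the members. The lowest adjusted p among these named genes was 0.315, for Notch1.

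Growth and cell cycle genes differed little between the stages, with no member past the threshold by limma. Mki67, of dividing cells, was at −0.01 ± 0.05 and Top2a, a topoisomerase of mitosis, at 0.00 ± 0.04, and the median over 30 mitosis and replication genes was −0.02. Pcna, the sliding clamp of DNA replication, named after its values were seen, had 5776, 5801 and 5429 normalized counts at E12.5 and 4928, 4894 and 4816 at E13.5. Its groups lay apart (−0.22 ± 0.04, adjusted p = 0.0761 by limma and 0.000207 by DESeq2). Cell cycle inhibitors (5 of 7 tested) had a median of 0.14, with Cdkn1a at 0.14 ± 0.23 and Cdkn1b at 0.08 ± 0.08. The imprinted growth genes Igf2 and H19 were at 0.10 ± 0.07 and 0.08 ± 0.06 (median of 14 genes 0.08), and Igf1 at 0.24 ± 0.15 (median of 11 of 12 genes 0.06). In the axis of Lin28 and let-7, which times development in many tissues, Lin28a was below the filter with 9.10, 3.04 and 4.0 and 11.8, 7.92 and 8.92, Lin28b had 58.7, 85.1 and 77.0 and 89.8, 101 and 97.1 (0.39 ± 0.16, adjusted p = 0.565), and the median of 12 genes was 0.01. No member of these 5 lists passed by limma or edgeR. An unadjusted p under 0.05 by limma was reached by 1 mitosis, 3 imprinted and 1 growth factor gene and by Lin28b. Of all genes, 8.33% reached it. DESeq2 called 1 gene in each of the mitosis, imprinted and growth factor lists, which were Pcna, Plagl1 and Insr. Insr, the insulin receptor, named after its values were seen, had 1097, 1057 and 1119 normalized counts at E12.5 and 905, 766 and 897 at E13.5, which did not overlap (−0.35 ± 0.07, adjusted p = 0.0999 by limma and 0.00408 by DESeq2). Plagl1, an imprinted zinc finger transcription factor, was at 0.16 ± 0.04 (adjusted p = 0.224 by limma).

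Genes of neighbouring tissues and of RNA quality were examined for differences that move with the groups. Myh6 and Myh7, the cardiac myosins, had 85.0, 1687 and 5688 and 19.2, 34.5 and 133 normalized counts at E12.5 and 1244, 2091 and 4932 and 76.9, 36.6 and 136 at E13.5. Myod1, of skeletal muscle, had 5.06, 5.07 and 34.0 and 32.6, 5.94 and 25.8, and Myog 5.06, 9.12 and 58.0 and 68.1, 10.9 and 46.6. E12.5 replicate 3 and E13.5 replicates 1 and 3 were the libraries high in both of these. The liver genes Alb and Afp were at 0.12 ± 0.56 and 0.06 ± 0.41 (5 of 10 liver genes tested, median 0.06). The glial gene Sox10 was at 0.26 ± 0.18, with 9 of 10 glial genes tested. The glial median was 0.26 in the controls and −0.38 in the mutants. In the controls DESeq2 called 1 glial gene, Ngfr, beside 0.468% of all genes called higher. Ngfr, named after its values were seen, was at 0.49 ± 0.11 with every E13.5 library higher (adjusted p = 0.207 by limma and 0.0342 by DESeq2). Immediate early genes, which respond to handling, had a median of −0.03 over 10 tested of 11, with Fos at 0.44 ± 0.24 and Fosb below the filter. The medians were −0.03 over 77 of 78 cytosolic ribosomal protein genes, −0.06 over 17 of 69 histone genes and −0.01 over 11 of 12 hosts of small nucleolar RNAs, and no gene with a mitochondrial prefix was in the tables. The fold changes rose weakly with transcript length across genes (Spearman's rho 0.0554 over 14219 genes, which share the 6 libraries), against −0.210 in the mutants, and with that trend removed 18 genes passed the threshold.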

How the data were processed

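Bulk RNA-Seq of whole lungs was analysed from 3 deposited tables, 1 per experiment. The submitters' processing notes name Trim Galore, HISAT2, featureCounts, DESeq2 and mm10, with no versions or parameters given. The deposited values are signal: within each table the authors scaled reads per gene by DESeq2 size factors. Each value was a whole number of reads times 1 step per library, within 4.58e-05 reads, which gave whole reads for 100% of values in 18 libraries and the depths in the report. The authors' columns of log2 fold changes and p-values in the deposited tables hold their own comparisons and were not used.

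Tables were joined by gene name after dropping 27 date-like rows of 23420, leaving 23393 names. The 6 control libraries were scaled together by the median of ratios, so that levels set beside them from other groups carry a factor of their own. Genes that reached 10 normalized counts in 3 or more libraries were tested with limma 3.58.1 (R 4.3.3, trend) on log2(value + 1), with Benjamini-Hochberg adjustment. The same fit was made for the mutants, for the Vangl1-/- controls against each Wnt5a control group, and for the difference between mutants and controls over 12 libraries. DESeq2 1.42.0 and edgeR 4.0.16 on the recovered reads, other scalings, pseudocounts, filters, blocks and left-out libraries were alternatives. Scripts were tested on simulated data.

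Members and lists were chosen with earlier results of these data known. Named genes were the 10 largest rises and 10 largest falls past the threshold with groups that did not overlap and a mean of at least 100 in the higher group, which 8 and 4 genes met; Wnt5a, Twist2 and Sox9; and the first 2 genes of each list with up to 4 past the threshold. Other genes are said to be named after their values were seen. Single values of some genes under this rule are not reported here. Promoter windows were RefSeq entries of GRCm38.p6 (250 bases before to 50 after a start) and held 14 of the 17 genes past the threshold. Of 4 motifs searched on both strands, those not described in the report were TTCNNNGAA, in 8.3% of windows and in those of 2 of these 14 genes (Gstm6 and Pde1c), and TTCAGCACC, in 0.371% and in 0 of the 14. Windows were aligned with Biopython 1.88. Intervals or limits from read counts cover counting error only.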

Additional observations from a re-analysis of the deposited data

How the results depend on the processing

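The 17 genes past the threshold in controls became 15 with edgeR, 17 with TMM scaling, 25 with the deposited size factors, 15 and 16 with pseudocounts of 0.5 and 5, 12 with a filter of 50, and 18 once the trend with transcript length was taken out. The count was 108 with DESeq2, 10 with no filter (18864 genes tested), 0 at a threshold of 0.01 by limma (1192 at an unadjusted p under 0.05), and 33 with the replicate block. With 1 library left out at a time it ran from 0 to 84. The replicate numbers share only a number: the correlations of the deviations of same-numbered libraries were 0.0844, 0.0849 and 0.330, and E13.5 replicate 2 correlated best with E12.5 replicate 1. With the replicate block and the length trend removed together, 24 genes passed. Of 201 values of the 17 genes under settings other than leaving out a library, 159 stayed past the threshold, 42 did not and 0 reversed, and with a library left out 32 of 93 stayed past it. The cause of these moves was not tested, except that fewer libraries or more genes tested entered where the setting says so.

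For the mutants the 6 calls became 44 with DESeq2, 0 at a threshold of 0.01, 3 with the replicate block, 12 with the length trend removed, and 0 to 20 with a library left out. For the E13.5 against the Vangl1-/- controls, 448 became 2416 with DESeq2, 76 with the replicate block, 1120 with the length trend removed, and 4 to 8000 with a library left out. For the Vangl1-/- against the E12.5 controls, 198 became 2079, 76, 669, and 4 to 7322 in the same settings. The difference between mutants and controls gave 0 to 65 genes with a library left out and 0 with the replicate block (885 at an unadjusted p under 0.05). Low genes rest on few reads.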
